A study of Mus musculus with 9 samples.

Results

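The cytosolic ribosomal protein genes were taken as the rows of the expression table whose symbol begins with Rpl or Rps and a number, with or without a final letter a, x, l or y, together with Rplp0, Rplp1, Rplp2 and Rpsa. This rule found 80 of the 18062 gene symbols, 48 of the large and 32 of the small ribosomal subunit. Of these, 77 are canonical forms and 3 are paralogs (Rpl3l, Rps27l and Rpl39l). The members were followed in white gastrocnemius muscle from mice with and without acid alpha-glucosidase (Gaa), the lysosomal enzyme that breaks down glycogen and whose loss causes Pompe disease. There were 5 knock-out libraries from animals aged 5 months, in which exon 6 of Gaa is disrupted and loxP sites lie in introns 5 and 6. The 4 wild-type libraries came from animals aged 5 months (2 libraries) and 6 months (2 libraries). Both genotypes were labelled as of mixed background, and the knock-out colony, BL6/129j, was kept by mating brothers with sisters. The wild-type columns of the table (wt1 to wt4) carry no age, so they form 1 arm, and knock-out columns are called ko1 to ko5. The labels number the libraries without naming mice, so each p-value measures the spread between these libraries.

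Ribosomal proteins and ribosomal RNA build the 2 subunits of the ribosome: the small subunit reads the messenger RNA and the large subunit forms the peptide bonds. Cells make these proteins in near equal amounts and assemble them in the nucleolus, and their messenger RNAs belong to the most abundant in most tissues. Most of these messenger RNAs begin with a C followed by a run of C and T (U in the RNA), the 5′ terminal oligopyrimidine tract, through which mTORC1, the 4E-BP proteins and Larp1 set how much of each is translated. Skeletal muscle is known for replacing Rpl3, a large subunit protein next to the catalytic centre, by the muscle form Rpl3l.

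Values were RPKM (read counts divided by transcript length and library size), summed over the transcripts of a symbol. Gaa itself was 3.44 ± 0.204 (SD, n = 5) RPKM in knock-out libraries and 49.4 ± 4.48 (SD, n = 4) RPKM in the wild type, and no libraries overlapped. By the step of single reads among low values, 1 RPKM of a 1 kb transcript was worth 17.6 to 37.2 reads in knock-out libraries and 37.0 to 64.4 reads in wild-type libraries. At least 100 estimated reads over the coding length backed 71 of the 80 members in every library. Markers of fast muscle fibres summed to 95654 to 107814 RPKM in knock-out libraries and 89160 to 95702 RPKM in the wild type. Skeletal muscle was thus seen in all 9 libraries, but this sum does not identify which muscle it was. The wild-type columns fell into pairs over all tested genes: the median deviation from a gene's own mean was -0.10 and -0.12 on the log2 scale in wt1 and wt2, and -0.01 and -0.04 in wt3 and wt4.

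RefSeq promoter sequences of the build GRCm38.p6, which is not the mm9 build of the deposited values, matched 59 of the 80 symbols. The windows below are shown because the tract at the start is the feature that these messenger RNAs are known to share. Each runs from 15 bases before the annotated start to the base 15 into the transcript, 5′ to 3′, and capitals mark a run of at least 6 C or T letters that opens with C within 15 bases of that start. They are from 7 of the 8 members that rose most (Rpl41 to Rpl18), the stalk protein Rplp2, members at the low end of the changes (Rps25, Rpl15, Rpl7a) and the paralogs with their canonical forms, as far as each has an entry. Rps21, Rpl3l, Rpl22 and Rps27l have 2 annotated starts, of which the first is shown.
Rpl41 (chr10:128549154-128549183, minus strand): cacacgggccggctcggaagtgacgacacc
Rps21 (chr2:180257364-180257393, plus strand): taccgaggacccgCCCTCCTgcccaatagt
Rpl13a (chr7:45128731-45128760, minus strand): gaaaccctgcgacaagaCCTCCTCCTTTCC
Rplp0 (chr5:115559452-115559481, plus strand): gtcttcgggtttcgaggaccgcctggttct
Rpl23 (chr11:97782425-97782454, minus strand): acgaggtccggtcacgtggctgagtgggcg
Rps28 (chr17:33824548-33824577, minus strand): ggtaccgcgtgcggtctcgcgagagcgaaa
Rpl18 (chr7:45718056-45718085, plus strand): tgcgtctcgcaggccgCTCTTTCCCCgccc
Rplp2 (chr7:141447636-141447665, plus strand): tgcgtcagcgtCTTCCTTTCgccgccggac
Rps25 (chr9:44407699-44407728, plus strand): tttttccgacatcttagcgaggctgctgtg
Rpl15 (chr14:18270972-18271001, minus strand): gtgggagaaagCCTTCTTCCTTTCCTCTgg
Rpl7a (chr2:26910792-26910821, plus strand): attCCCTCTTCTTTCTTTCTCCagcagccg
Rpl3l (chr17:24727811-24727840, plus strand): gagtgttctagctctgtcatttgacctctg
Rpl22 (chr4:152325711-152325740, plus strand): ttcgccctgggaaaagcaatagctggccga
Rpl22l1 (chr3:28805493-28805522, plus strand): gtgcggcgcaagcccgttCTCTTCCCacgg
Rps27 (chr3:90213634-90213663, minus strand): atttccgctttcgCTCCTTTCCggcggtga
Rps27l (chr9:66946071-66946100, plus strand): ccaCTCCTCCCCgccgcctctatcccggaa
Rpl36a (chrX:134585639-134585668, plus strand): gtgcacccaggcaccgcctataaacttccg
Rpl36al (chr12:69184053-69184082, minus strand): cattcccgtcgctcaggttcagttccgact
Rpl39 (chrX:37085208-37085237, minus strand): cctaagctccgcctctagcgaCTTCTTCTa
Rpl39l (chr16:10170213-10170242, plus strand): ctcccaggCCTTTCCggatttccggtggtc
Such a run was present for 37 of the 59 members (62.7%). The same search found it in 31.5% of 7878 tested genes with a start in the table, in 35.8% of 67 mitochondrial ribosomal protein genes and in 31.2% of 32 proteasome genes. Of the 7 strong risers shown, Rps21, Rpl13a and Rpl18 had a run and Rpl41, Rplp0, Rpl23 and Rps28 had none. At the low end Rpl15 and Rpl7a had runs of 17 and 19 letters, and Rps25, Rpl22 and the muscle form Rpl3l had none in the window shown. The median log2 fold change was 0.50 in 36 tested members with a run and 0.54 in 22 without. These are not members with and without the tract. A run can lie wholly before the annotated start, as for Rps27l, and annotated starts may differ from those used in muscle. Which members carry the tract in the messenger RNA was not tested. Other motifs were searched on both strands in the 300 bases from 250 before to 50 after the start. CCGGAAG (the core of sites for ETS factors such as GABP) was found for 25 of 59 members (42.4%) and for 20.4% of all tested genes. CCGGAAG was also found for 35.8% of the mitochondrial ribosomal protein genes and 31.2% of the proteasome genes, so it was not particular to the members. AAGATGGC, known from YY1 sites, was found for 8.47% of members, 17.9% of mitochondrial ribosomal protein genes, 9.38% of proteasome genes and 5.50% of all. TATAAA was found for 10.2% of members and 8.92% of all. No difference between these shares was tested. None of these motifs contains another. A match is a description of the sequence and not a bound site.

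The ribosomal protein genes were higher in knock-out muscle almost as a block, each by a modest amount. Of the 78 members with a mean of at least 0.5 RPKM, 72 rose, 0 fell and 6 did not pass the threshold (limma on log2(RPKM + 0.1), adjusted p under 0.05 over 11032 genes). Of all tested genes, 37.0% were called higher and 14.8% lower. The median log2 fold change of the members was 0.52, against 0.12 over all tested genes. All 78 estimates were positive, from 0.02 for Rpl7a to 0.85 for Rpl41, and none reached a doubling. The added 0.1 RPKM makes these estimates too small for the members of low level. For 71 members every knock-out library lay above every wild-type library, which held for 30.9% of all tested genes (the reverse held for 11.4%). The members also moved by like amounts: their log2 fold changes had an SD of 0.16 and an interquartile range of 0.39 to 0.58, whereas the SD over all tested genes was 0.56. A limited range was also seen in mitochondrial ribosomal protein genes (-0.42 to 0.59) and proteasome genes (-0.34 to 0.70), so it was not particular to the members. The median SE was 0.088 over all tested genes and 0.064 over the tested members. Of the 80 members, 50 were among the 500 genes of highest mean RPKM. In bulk muscle, more cells of a type that is rich in ribosomal protein messenger RNAs and more RNA per cell cannot be told apart.

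**Figure D1:**
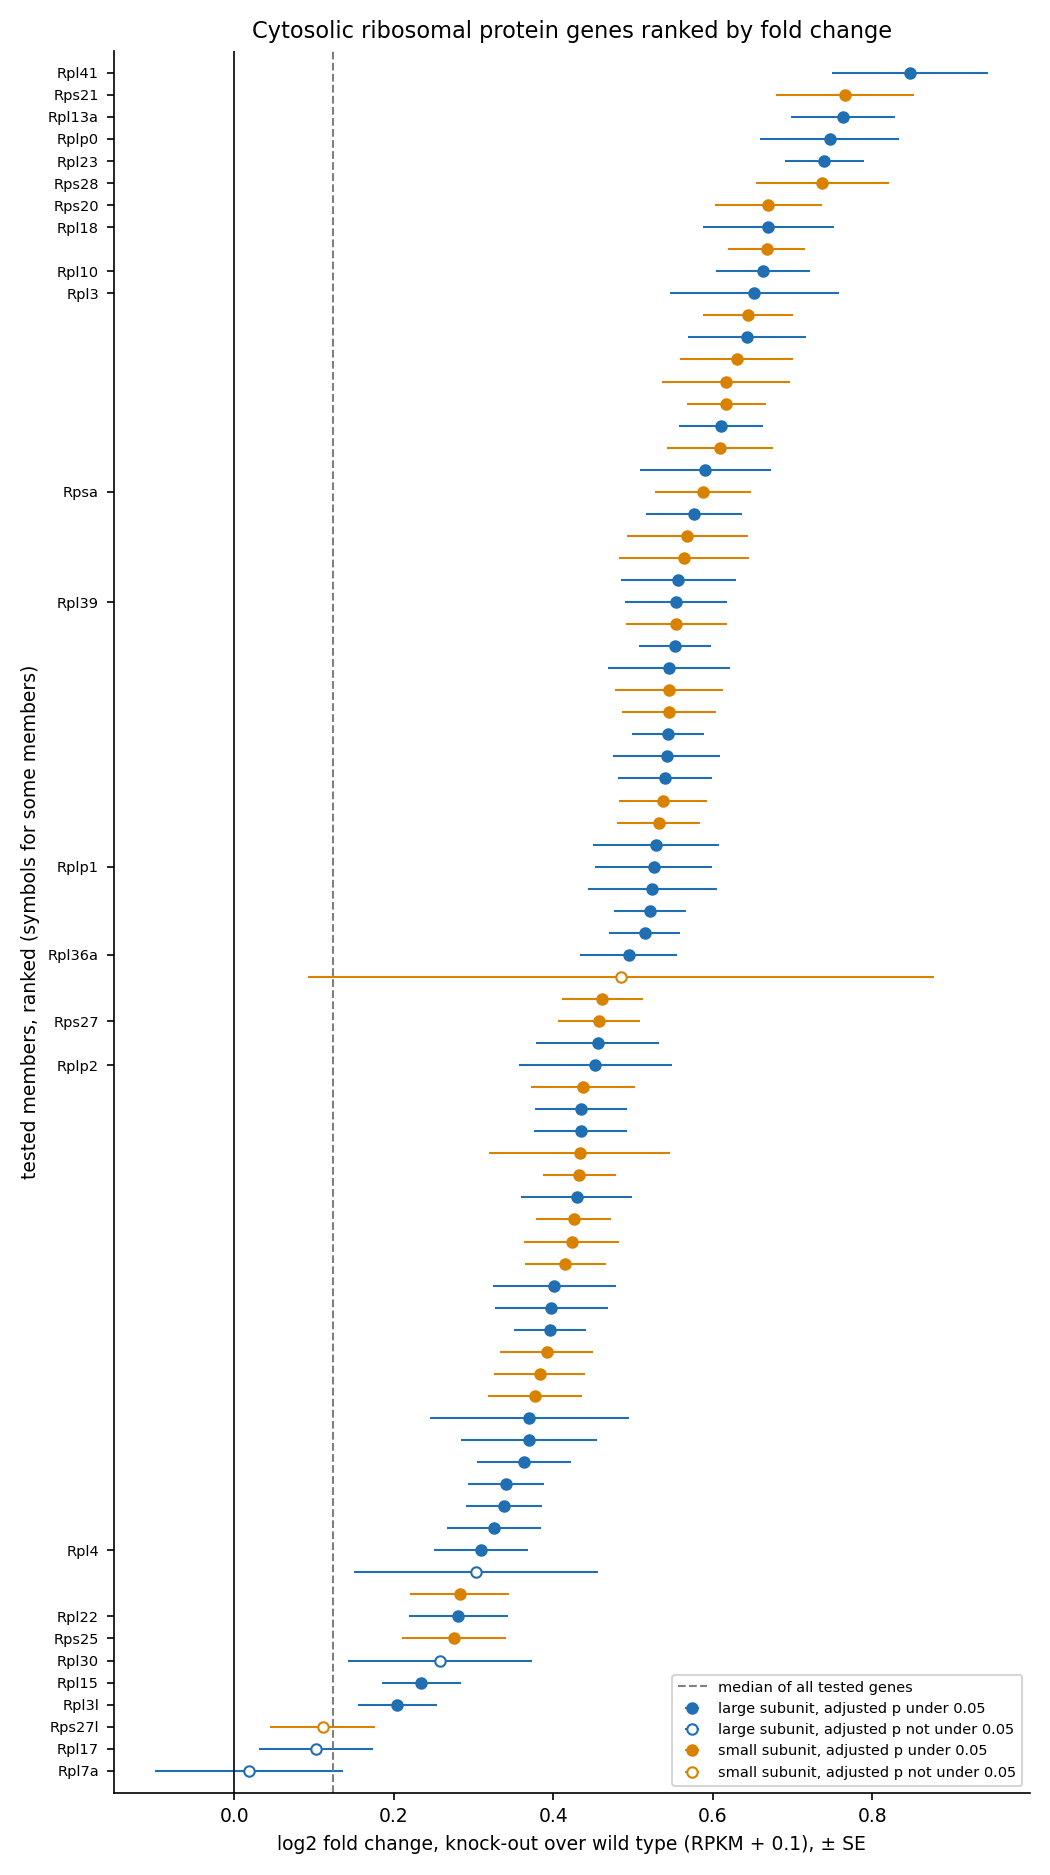
Log2 fold change (knock-out over wild type, RPKM + 0.1) with its limma SE for the 78 tested members, ranked, with large subunit genes in blue and small subunit genes in orange; open circles did not pass an adjusted p of 0.05, and symbols are given for some members. All estimates lie right of 0, from 0.02 (Rpl7a) to 0.85 (Rpl41), and most lie right of the dashed line at 0.12, the median of all tested genes.

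Rpl41, which encodes the smallest ribosomal protein, rose most. It measured 392, 311, 259, 321 and 296 RPKM in ko1 to ko5 and 185, 171, 176 and 164 RPKM in wt1 to wt4. All knock-out libraries were above all wild-type libraries, with ko1 highest, and the log2 fold change of 0.85 (SE 0.098, limma adjusted p = 2.8e-05) is a ratio of means of 1.81. Rps21, a small subunit protein, measured 78.4, 71.4, 62.7, 70.8 and 62.3 RPKM in knock-out libraries and 45.5, 40.4, 41.6 and 35.0 RPKM in the wild type. It gave a log2 fold change of 0.77 (SE 0.087, limma adjusted p = 2.4e-05), again without overlap and with ko1 highest and wt4 lowest. Rpl13a, a large subunit protein that also acts outside the ribosome in repressing translation after interferon, was at 154, 134, 138, 143 and 139 RPKM and at 89.6, 86.4, 83.9 and 73.5 RPKM. Its log2 fold change of 0.76 (SE 0.065, limma adjusted p = 2.5e-06) came with no overlap.

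Rpl23, a large subunit protein at the interface of the subunits, had the smallest SE among the 8 strongest risers. Its wild-type values were 59.3, 60.5, 57.7 and 58.0 RPKM and its knock-out values 103, 94.8, 105, 95.9 and 93.8 RPKM, a log2 fold change of 0.74 (SE 0.050, limma adjusted p = 3.6e-07). The highest wild-type column and the lowest knock-out column were further apart than the columns within either group. Rps28, which lies where the messenger RNA leaves the small subunit, measured 104, 106, 87.0, 93.5 and 81.0 RPKM against 53.5, 54.7, 62.3 and 54.7 RPKM, a log2 fold change of 0.74 (SE 0.083, limma adjusted p = 2.4e-05); the wild-type column wt3 was the highest of its group. Rps20, of the head of the small subunit, rose from 155 ± 7.12 (SD, n = 4) to 246 ± 22.0 (SD, n = 5) RPKM, a log2 fold change of 0.67 (SE 0.067, limma adjusted p = 9.4e-06). For Rpl18 the means were 75.4 ± 3.34 (SD, n = 4) and 121 ± 14.9 (SD, n = 5) RPKM, with a log2 fold change of 0.67 (SE 0.083, limma adjusted p = 4.5e-05), and wt4 lay below the other wild-type columns.

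All 4 proteins of the stalk, the flexible arm of the large subunit that recruits elongation factors, rose, where 37.0% of all tested genes did. Rplp0, the base of the stalk, measured 282, 275, 259.6, 256 and 253 RPKM in knock-out libraries and 149, 183, 173 and 132 RPKM in the wild type, a log2 fold change of 0.75 (SE 0.087, limma adjusted p = 3.0e-05). Its wild-type columns differed more than its knock-out columns, and the groups did not overlap. Rplp1, which had the highest level of all members, measured 626, 549.7, 523, 552 and 509.7 RPKM against 419, 387, 384 and 344 RPKM, a log2 fold change of 0.53 (SE 0.073, limma adjusted p = 1.1e-04). Its partner Rplp2 was far lower, at 63.3, 70.1, 47.1, 57.4 and 56.9 RPKM against 39.8, 42.9, 44.8 and 43.4 RPKM, and rose with a log2 fold change of 0.45 (SE 0.096, limma adjusted p = 0.00212); ko3 was the lowest knock-out library. Rpl12, which sits beside Rplp0, had a log2 fold change of 0.52 (SE 0.081, limma adjusted p = 2.3e-04). With the trend over coding length or transcript length removed, Rplp2 no longer passed (log2 fold change of 0.21, limma adjusted p = 0.0651, and 0.18, limma adjusted p = 0.0792).

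Among other functional groups, Rpl5 and Rpl11, which carry the 5S RNA into the large subunit and bind Mdm2 when ribosome assembly fails, rose by 0.33 (SE 0.059) and 0.55 (SE 0.045) on the log2 scale. Of 8 proteins that line or rim the tunnel through which the new protein leaves, 7 rose, among them Rpl39 and Rpl4. The counts in these groups stand against 37.0% called higher over all tested genes. Rpl39 was at 134, 110.1, 134, 129 and 130 RPKM in knock-out libraries and 82.5, 89.9, 85.2 and 88.9 RPKM in the wild type (log2 fold change 0.55, SE 0.064). The eighth, Rpl17, measured 10.4 ± 0.786 (SD, n = 5) RPKM in knock-out libraries and 9.70 ± 0.659 (SD, n = 4) RPKM in the wild type and did not pass. Of 5 measured proteins of the messenger RNA entry and decoding sites, Rps2, Rps3, Rps9 and Rps15 rose by 0.43 to 0.57 and Rps23 did not pass. With the trend over coding length removed, 5 of the 8 tunnel proteins and 3 of these 5 were called higher, where 25.1% of all tested genes were. On that scale Rps2 (0.26, limma adjusted p = 0.0560) and Rpl5 (0.15, limma adjusted p = 0.110) did not pass. Rps7, Rps10, Rps19, Rps24, Rps26, Rpl5, Rpl11 and Rpl35a, whose human counterparts are mutated in Diamond-Blackfan anaemia, rose by 0.33 to 0.67.

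Rps6 lay in the middle of the range. This small subunit protein, phosphorylated by S6 kinase downstream of mTORC1, measured 129, 125, 129, 119.9 and 122 RPKM against 92.2, 95.5, 93.2 and 89.3 RPKM, a log2 fold change of 0.43 (SE 0.046, limma adjusted p = 1.4e-05). The knock-out libraries stood above the wild-type ones without overlap. Rpl10, one of the last proteins to join the large subunit, rose from 163 ± 10.2 (SD, n = 4) to 257 ± 13.6 (SD, n = 5) RPKM (0.66, SE 0.059), and Rpsa, also known as the laminin receptor, from 99.0 ± 6.27 (SD, n = 4) to 149 ± 8.91 (SD, n = 5) RPKM (0.59, SE 0.061). Rpl4, one of the most abundant members, rose less: it measured 310.0, 279, 309.8, 276 and 289.9 RPKM against 241, 255, 223 and 227 RPKM, a log2 fold change of 0.31 (SE 0.059, limma adjusted p = 0.00109). Once each library was centred on its median log ratio, the value for Rpl4 was 0.18 and did not pass (limma adjusted p = 0.0709).

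At the low end, Rps25, Rpl22 and Rpl15 still rose as deposited, without overlap between the groups. Rps25 measured 117 ± 7.70 (SD, n = 5) RPKM in knock-out libraries and 96.3 ± 6.87 (SD, n = 4) RPKM in the wild type (0.28, SE 0.065), and Rpl15 56.7 ± 2.26 (SD, n = 5) RPKM and 48.2 ± 2.08 (SD, n = 4) RPKM (0.23, SE 0.050). After centring, these values were 0.15 and 0.11 and neither passed (limma adjusted p = 0.162 and 0.188). Without wt3 and wt4, Rps25 was at 0.19 and did not pass (limma adjusted p = 0.0615). The 6 members that did not pass as deposited were Rpl7a, Rpl17, Rpl21, Rpl30, Rps23 and Rps27l. Rpl7a measured 4.6, 4.82, 4.30, 4.39 and 4.17 RPKM in knock-out libraries and 3.41, 5.68, 4.49 and 4.27 RPKM in the wild type, an estimate of 0.02 (SE 0.118, limma adjusted p = 0.905). Rpl30 measured 8.19, 8.05, 10.6, 8.40 and 6.89 RPKM against 7.43, 5.97, 7.87 and 6.74 RPKM, 0.26 (SE 0.115, limma adjusted p = 0.0818), and without ko5 it passed at 0.33 (limma adjusted p = 0.0307). In these 6 the groups overlapped, and the SE was largest for Rps23, at 0.48 (SE 0.392, limma adjusted p = 0.323).

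Members that did not pass were mostly of low level. Of the 70 members with a mean of at least 20 RPKM, 69 rose, the exception being the paralog Rps27l. Of the 8 tested members below 20 RPKM, only Rpl26, Rpl29 and Rps15a did, where 37.0% of all tested genes were called higher. Ribosomal protein genes have many near-identical processed copies in the mouse genome, and reads shared with a copy may be split or dropped in counting, so single levels are uncertain. Of the 36-base runs in a member's coding sequence, a median of 95.9% also occurred in a GENCODE M21 transcript of another gene, and in 33 members every run did. Rpl7a shared runs with 152 other annotated genes, Rpl29 with 113 and Rpl21 with 105, and these 3 had means of 4.46, 6.26 and 1.01 RPKM. The others of the 5 members with over 60 such genes were Rps2 (88) and Rpl17 (67), with means of 42.6 and 10.1 RPKM. The median number of other genes was 17.5 for the 10 members under 20 RPKM and 12 for the other 70, and its Spearman correlation with the mean level was -0.33 across the 80 members. The share of runs found elsewhere did not differ in this way, with medians of 94.6% under 20 RPKM and 96.2% above and a Spearman correlation of -0.16 with the mean level. These are descriptions without a test. Rpl3l (0%), Rpl8 (10.5%), Rps3 (14.8%) and Rpl4 (32.1%), named after their values were seen, were among the tested members with the smallest share. As deposited these rose, by 0.20, 0.40, 0.46 and 0.31 on the log2 scale. They are not all the members with a small share, so no pattern of fold change with the share is read from them.

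The table lists several transcripts for 9 members, and 3 are described here as examples chosen after their values were seen. For Rps27a, which encodes ubiquitin fused to a ribosomal protein, 1 transcript measured 102 ± 6.34 RPKM (SD, n = 5) in knock-out libraries and 62.4 ± 1.68 RPKM (SD, n = 4) in the wild type, without overlap. The other measured 14.8 ± 1.95 (SD, n = 5) and 13.5 ± 1.05 RPKM (SD, n = 4), and its groups overlapped. For Rpl34 the main transcript, with 92.6% of the summed value, measured 93.3 ± 4.59 (SD, n = 5) and 70.4 ± 5.04 RPKM (SD, n = 4), and the minor one 6.31 ± 0.946 (SD, n = 5) and 7.11 ± 0.611 RPKM (SD, n = 4). The 3 transcripts of Rps24 stood in nearly the same proportion to each other in every library. Their like differences between the groups, 0.41 to 0.42 on the log2 scale, are therefore not 3 separate measurements.

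Library by library, the members took 2.69% to 2.86% of all RPKM in the knock-out, 2.75% ± 0.065 (SD, n = 5), and 2.07% to 2.19% in the wild type, 2.15% ± 0.056 (SD, n = 4). Their summed value was 9569 to 10689 RPKM in knock-out libraries and 6526 to 7185 RPKM in the wild type. The median member deviated from its own mean over the 9 libraries by 0.32, 0.22, 0.16, 0.22 and 0.18 on the log2 scale in ko1 to ko5 and by -0.25, -0.24, -0.25 and -0.35 in wt1 to wt4. Thus ko1 stood highest and wt4 lowest, and the groups did not overlap. After each library was centred on its median log ratio over all tested genes, the deviations were 0.31, 0.12, 0.12, 0.15 and 0.12 in knock-out libraries and -0.15, -0.12, -0.24 and -0.31 in the wild type, still without overlap. Leaving out any 1 library left 71 to 73 members called higher and a median of 0.47 to 0.53.

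**Figure D2:**
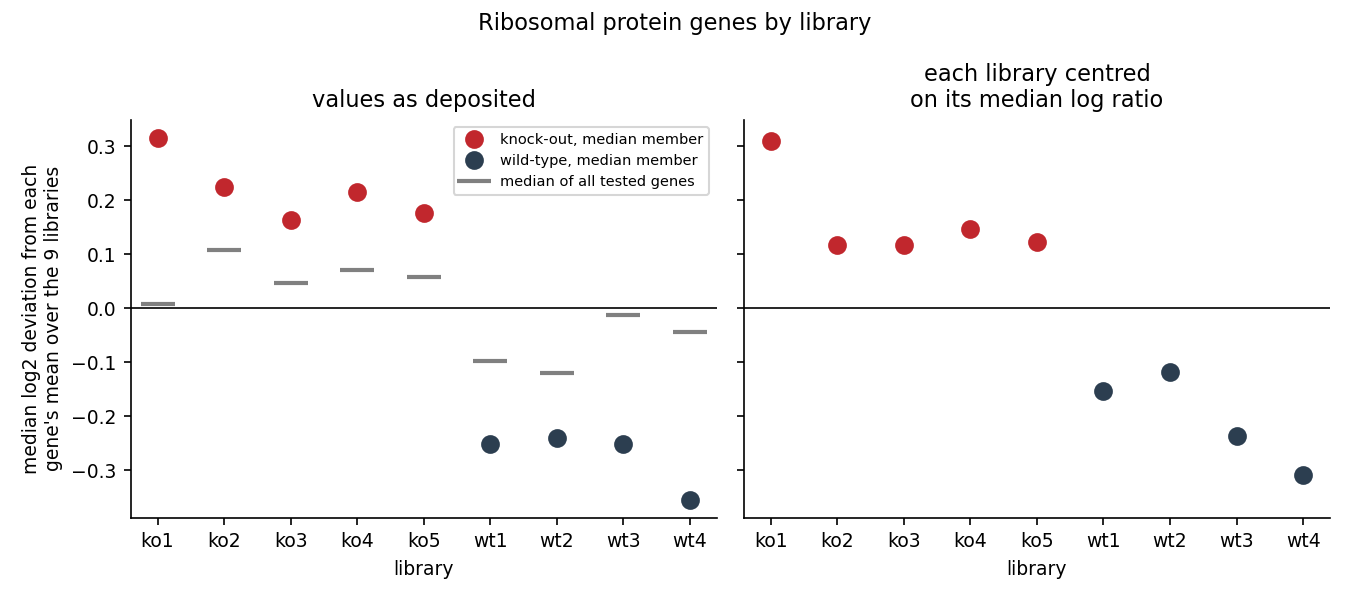
Median log2 deviation of the tested members from their own mean over the 9 libraries, per library, as deposited (left, with the median over all tested genes as grey bars) and after centring each library on its median log ratio (right). Knock-out libraries sit between 0.16 and 0.32 on the left and between 0.12 and 0.31 on the right, and all wild-type libraries sit below 0.

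How far the members stood above the rest depended on the scaling. Centring moved the median of all genes from 0.12 to 0.00 and turned the background from 37.0% higher and 14.8% lower to 25.1% higher and 24.9% lower. On that scale 65 members rose, 0 fell, and the median was 0.39. The 7 that no longer passed were Rpl3l, Rpl4, Rpl15, Rpl22, Rpl29, Rps15a and Rps25; with quantile normalization these and 8 others, among them Rpl5, Rpl8 and Rpl34, did not pass. With quantile normalization 57 rose and 0 fell (24.0% of all genes higher, 27.7% lower), with a median of 0.29, and with equal RPKM totals 65 rose and 0 fell (22.0% and 25.5%), with a median of 0.36. With centring on genes of at most 2136 bases 55 rose and 0 fell (18.2% and 35.2%), and with centring on the most abundant genes 62 rose and 0 fell (20.9% and 29.6%); both were chosen after seeing the data. The members kept a positive median on each scale, and the number of positive estimates was 73 to 75 of 78. The 3 that turned negative after centring were Rpl7a, Rpl17 and Rps27l (-0.11, -0.02 and -0.02), none of which passed.

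Ribosomal protein messenger RNAs are short, and in these libraries short transcripts were higher in the knock-out in general. Of the 3627 tested genes with transcripts of at most 2136 bases, 49.6% were called higher and 9.48% lower, and of the 773 with at most 1 kb, 57.1% were called higher. The tested members had coding lengths of 75 to 1257 bases, with a median of 454.5 bases, against 1326 bases over all tested genes. Over the members in 3 classes of 26 by coding length (75 to 399, 405 to 576 and 582 to 1257 bases), the median log2 fold change was 0.51, 0.50 and 0.54. Over all tested genes in the same ranges it was 0.25, 0.23 and 0.17. Across members the Spearman correlation of coding length with fold change was -0.07 (n = 78), and across all genes it was -0.19 (n = 10693); genes of 1 library are not independent, so no test is given. After the trend with coding length had been removed from each library, 56 members rose, 0 fell and the median was 0.28 (25.1% of all genes higher, 23.9% lower). With transcript length in its place, 46 rose, Rpl17 and Rps27l fell, and the median was 0.22 (24.8% and 24.1%). Transcript lengths came from GENCODE and can differ from those behind the deposited values. For Rps15a the matched transcript had 5179 bases with a coding length of 390, and Rps15a was called higher with the trend over transcript length removed but not with that over coding length removed.

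**Figure D3:**
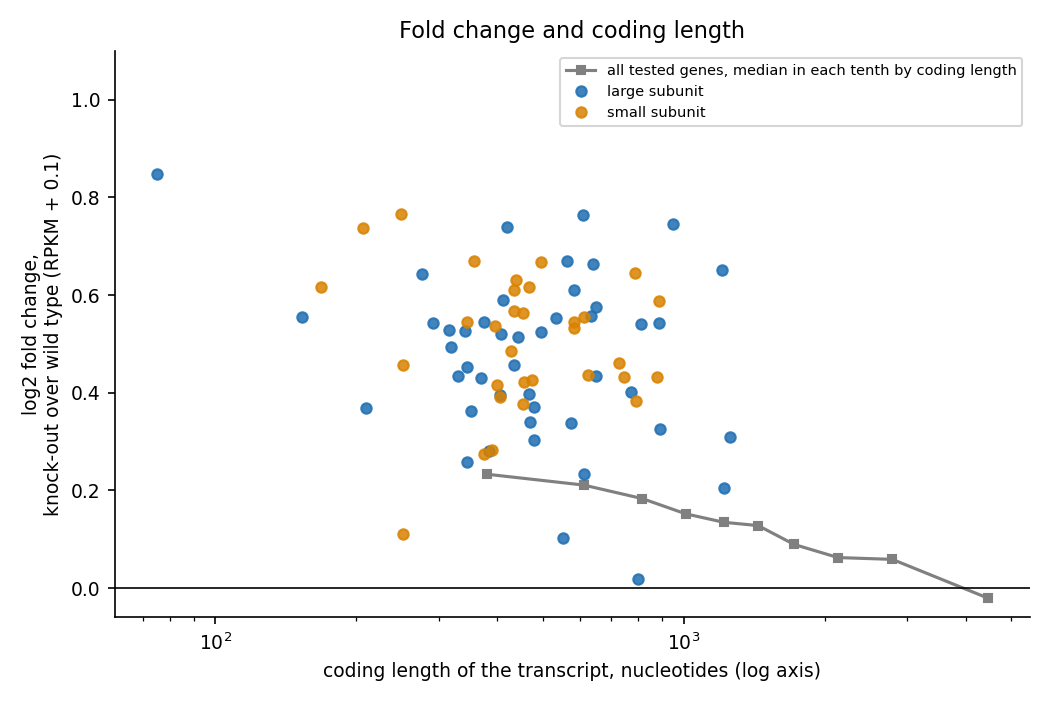
Log2 fold change (knock-out over wild type, RPKM + 0.1) of the 78 tested members against coding length in nucleotides on a log axis, with the median of all tested genes in 10 equal classes by coding length as grey squares. The grey line falls from 0.23 in the shortest class to -0.02 in the longest, and most members lie above it over their whole range of lengths.

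Members of both subunits rose, with similar medians. Of the large subunit 42 of 46 tested genes rose, with a median log2 fold change of 0.50 and quartiles of 0.36 and 0.56. Of the small subunit 30 of 32 rose, with a median of 0.53 and quartiles of 0.42 and 0.61. Over all tested genes 37.0% were called higher as deposited and 25.1% after centring. After centring, 37 of 46 and 28 of 32 rose, with medians of 0.38 and 0.41. The difference of the medians was -0.03, and it changed sign with quantile normalization (0.0059) and without wt1 and wt2 (0.03). Between single libraries of a group such differences had an SD of 0.024, which is not the error of a difference between groups. The difference between the subunits was not tested. The ratio of summed large to summed small subunit RPKM was 1.33 to 1.37 in knock-out libraries and 1.35 to 1.38 in the wild type, and the groups overlapped.

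The muscle form Rpl3l and its canonical counterpart Rpl3 did not move together. Rpl3 measured 21.0, 28.6, 21.9, 29.0 and 25.9 RPKM in ko1 to ko5 and 15.6, 14.0, 17.3 and 17.0 RPKM in wt1 to wt4, a log2 fold change of 0.65 (SE 0.106, limma adjusted p = 3.4e-04). The groups did not overlap, and Rpl3 stood among the stronger risers. By the mean over the 9 libraries, though not in the knock-out libraries alone, Rpl3l was the most abundant member after Rplp1 per length. It measured 288, 311, 282, 278 and 279 RPKM and 243, 255, 255 and 245 RPKM, a log2 fold change of 0.20 (SE 0.050, limma adjusted p = 0.00492). That small rise did not hold on other scales: it was 0.08 after centring and not called, and its sign flipped with quantile normalization (-0.09) and with the trend over transcript length removed (-0.02). The ratio of Rpl3l to Rpl3, which no scaling of a whole library can change, was 13.8, 10.9, 12.9, 9.59 and 10.8 in knock-out libraries and 15.6, 18.2, 14.8 and 14.4 in the wild type. Every knock-out library lay below every wild-type library, with means of 11.6 ± 1.70 (SD, n = 5) in the knock-out against 15.8 ± 1.72 (SD, n = 4) in the wild type. On the log2 scale the difference was -0.45 (SE 0.12, exact two-sided permutation test over 126 splits, p = 0.0159, adjusted p = 0.0212 over the 4 pairs tested). Without wt1 and wt2 it was -0.35 and no longer passed (exact permutation p = 0.143), and without wt3 and wt4 it was -0.55 (exact permutation p = 0.0476). Rpl3l still made up 91.9% of the sum of both in knock-out libraries and 94.0% in the wild type. Of the 36-base runs of Rpl3, 96.9% also occurred in other genes, against 0% for Rpl3l. Reads of Rpl3 may thus have been split or dropped in counting, so the share and the ratio are uncertain. The part of such reads in the ratio was not tested.

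In the 3 other measurable pairs the ratio also moved toward the canonical form. All 36-base runs of Rps27 and Rpl36a also occurred in other genes, as did 58.1% for Rps27l and 47.9% for Rpl22. The part of such shared reads in these ratios was not tested. Rps27l, a paralog known as a p53 target, measured 46.1, 38.3, 44.9, 41.9 and 43.9 RPKM against 39.0, 43.3, 40.0 and 37.0 RPKM and overlapped between groups (0.11, SE 0.066, limma adjusted p = 0.179). Rps27 measured 61.9, 54.0, 56.0, 55.8 and 58.7 RPKM against 43.3, 40.9, 42.1 and 40.3 RPKM and rose (0.46, SE 0.052, limma adjusted p = 2.4e-05). Their ratio was 0.751 ± 0.0331 (SD, n = 5) in the knock-out against 0.957 ± 0.0713 (SD, n = 4) in the wild type, without overlap (log2 difference of -0.35, SE 0.059, exact permutation p = 0.0079, the smallest this design can give, adjusted p = 0.0159). Rpl22l1, a paralog outside the symbol rule, fell: it measured 28.2, 22.8, 25.2, 28.9 and 24.5 RPKM against 34.4, 31.9, 32.5 and 36.5 RPKM, a log2 fold change of -0.39 (SE 0.076, limma adjusted p = 0.00120). Rpl22, by contrast, measured 36.9, 36.1, 37.2, 34.0 and 35.5 RPKM against 32.8, 30.1, 29.1 and 26.5 RPKM (0.28, SE 0.062, limma adjusted p = 0.00277; 0.15 and not called after centring). The ratio of Rpl22l1 to Rpl22 was 0.722 ± 0.0856 (SD, n = 5) in the knock-out against 1.15 ± 0.155 (SD, n = 4) in the wild type, so the paralog went from the larger to the smaller of the pair (log2 difference of -0.67, SE 0.118, exact permutation p = 0.0079, adjusted p = 0.0159).

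Rpl36al, which encodes nearly the same protein as Rpl36a from a copy without introns, rose from 108 ± 6.56 (SD, n = 4) to 137 ± 8.03 (SD, n = 5) RPKM (0.35, SE 0.060; 0.12 and not called with quantile normalization), and Rpl36a rose from 48.2 ± 4.13 (SD, n = 4) to 67.8 ± 2.35 (SD, n = 5) RPKM (0.49, SE 0.060). Their ratio was 2.02 ± 0.0857 (SD, n = 5) in the knock-out against 2.24 ± 0.186 (SD, n = 4) in the wild type; it overlapped between groups (log2 difference of -0.15, SE 0.064, exact permutation p = 0.0397, adjusted p = 0.0397). This call was lost when any 1 library except wt1 was left out, with differences of -0.18 to -0.09 and exact permutation p of 0.0571 to 0.0857 where it was lost, and without wt3 and wt4 it was -0.08 (exact permutation p = 0.286). The calls for Rps27l against Rps27 and Rpl22l1 against Rpl22 held with each library left out, at -0.37 to -0.30 and -0.73 to -0.58. Rpl39l, a form known from testis, was listed at 0.0383, 0, 0, 0 and 0 RPKM in ko1 to ko5 and 0.0999, 0, 0.134 and 0.0260 RPKM in wt1 to wt4, which is at the edge of detection in both groups, and was not tested.

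**Figure D4:**
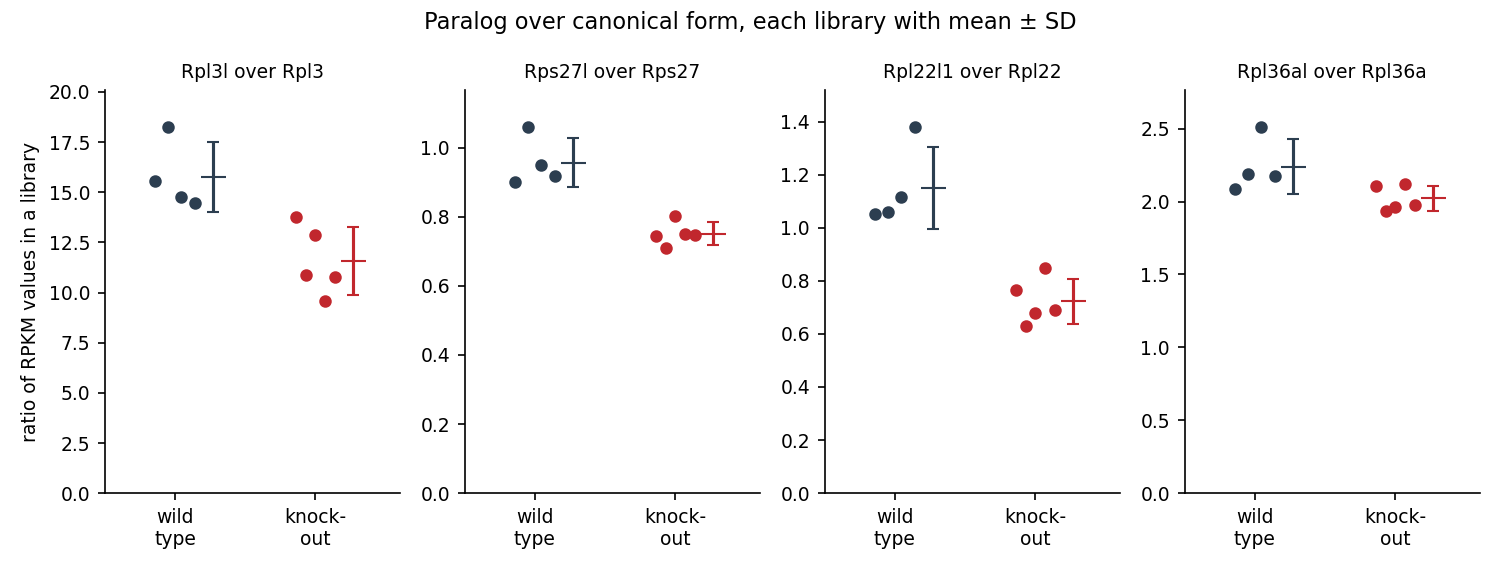
RPKM of a paralog divided by RPKM of its canonical form, 1 point per library, with the group mean ± SD beside the points, for Rpl3l over Rpl3, Rps27l over Rps27, Rpl22l1 over Rpl22 and Rpl36al over Rpl36a. The knock-out points lie below all wild-type points in the first 3 panels, and the groups overlap in the last.

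Of 8 measured ribosomal genes outside the symbol rule, 6 rose and 2 fell, where 37.0% and 14.8% of all tested genes did. Fau, a ubiquitin-like protein fused to a small subunit protein, measured 94.8 ± 11.7 (SD, n = 5) RPKM against 62.3 ± 4.0 (SD, n = 4) RPKM (0.60, SE 0.085), close to Rps27a (0.62). Gnb2l1, the small subunit scaffold also called Rack1, rose by 0.34 (SE 0.054) and Rpl7l1 by 0.27 (SE 0.054). Gnb2l1 did not pass with quantile normalization (0.04) or with the coding length trend removed (0.17), and Rpl7l1 did not with equal totals (0.11) or with the coding length trend removed (0.08). Rps19-ps3, a copy of Rps19, measured 33.8 ± 2.99 (SD, n = 5) RPKM against 22.9 ± 2.64 (SD, n = 4) RPKM (0.56, SE 0.084); Rps19 itself was at 0.61, and how many reads the copy shares with it was not tested. Besides Rpl22l1, Rps4y2 fell, at 0.865 ± 0.184 (SD, n = 5) RPKM against 1.47 ± 0.410 (SD, n = 4) RPKM (-0.69, SE 0.185).

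Related gene lists had smaller medians than the ribosomal proteins. Their counts stand against 37.0% higher and 14.8% lower over all tested genes as deposited, and 25.1% and 24.9% after centring. Of 52 translation factors 27 rose and 4 fell as deposited, with a median of 0.17, and 15 rose and 11 fell after centring. Eef1a1, the elongation factor that brings transfer RNA to the ribosome, measured 301, 306, 334, 299.7 and 325 RPKM in knock-out libraries and 99.4, 95.3, 121 and 117 RPKM in the wild type, a log2 fold change of 1.54 (SE 0.076, limma adjusted p = 2.7e-08). This was a larger change than that of any ribosomal protein gene. Eef1a2, its adult muscle form, singled out after its values were seen, measured 693, 745, 634, 690.5 and 709 RPKM against 499, 497, 528 and 471 RPKM, a log2 fold change of 0.48 (SE 0.059, limma adjusted p = 4.8e-05), so both forms rose and Eef1a2 remained the higher. Eef1b2, which recharges Eef1a, rose by 0.59 (SE 0.045) and Eif4e, the cap-binding protein, by 0.52 (SE 0.062). Eif2s2, a subunit of the initiation factor that carries the first transfer RNA, fell by 0.57 (SE 0.057), Gspt1, a release factor, by 0.20, and the scaffold Eif4g1 by 0.16 on the log2 scale.

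Genes that build ribosomes had a median close to that of all genes. Over all tested genes 37.0% were called higher and 14.8% lower as deposited, and 25.1% and 24.9% after centring. Of 95 tested biogenesis genes 22 rose and 7 fell, with a median of 0.08, below the 0.12 of all tested genes, and after centring 14 rose and 21 fell. Utp18, of the small subunit processome, rose from 1.90 ± 0.267 (SD, n = 4) to 4.05 ± 0.363 (SD, n = 5) RPKM (1.06, SE 0.101), Polr1d, a subunit of RNA polymerase I and III, by 0.50, and Rrp1 by 0.47. Rrp12, Tcof1 and Bms1 fell by 0.39, 0.34 and 0.34. A list drawn up for control of ribosomal protein translation also held genes of other roles, such as Trp53, Cdkn1a, Mdm2 and Max. Of its 30 tested genes 7 rose and 5 fell, with a median of -0.04, and after centring 6 rose and 15 fell. Eif4ebp1, the mTORC1 target that blocks Eif4e, measured 69.9, 59.8, 60.5, 50.8 and 55.6 RPKM against 24.4, 24.6, 25.1 and 19.7 RPKM, a log2 fold change of 1.33 (SE 0.095, limma adjusted p = 6.2e-07). Its relative Eif4ebp2 fell, from 46.2 ± 3.66 (SD, n = 4) to 34.5 ± 2.91 (SD, n = 5) RPKM (-0.42, SE 0.073). Larp1, which binds the tract at the start of these messenger RNAs, also fell, from 21.7 ± 2.19 (SD, n = 4) to 17.4 ± 0.503 (SD, n = 5) RPKM (-0.32, SE 0.066), as did Deptor, an inhibitor of mTOR (-0.66, SE 0.128). Trp53 rose by 0.74 (SE 0.078), and its target Cdkn1a by 2.14 (SE 0.227), from 3.52 ± 1.54 (SD, n = 4) to 15 ± 2.63 (SD, n = 5) RPKM. Mdm2, of the same list, was at 0.03 and not called, and Rps27l, named above as a p53 target, was at 0.11 and not called.

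The mitochondrial ribosomal proteins, which form the separate ribosome of the mitochondrion, had 35 of 76 genes higher and 6 lower, with a median of 0.13, close to the 0.12 of all tested genes. After centring, 16 rose and 15 fell, where 25.1% and 24.9% of all tested genes did. Mrps12 rose by 0.59, Mrpl33 by 0.46 (0.12 and not called with the transcript length trend removed) and Mrps10 by 0.44, whereas Mrpl55, Mrpl16 and Mrpl19 fell by 0.42, 0.35 and 0.30. Of 37 tested proteasome genes, another abundant complex of many subunits, 28 rose and 0 fell, with a median of 0.32, and after centring 20 rose and 2 fell. As deposited, 37.0% of all tested genes were called higher and 14.8% lower. Psmc3, Psmc5 and Psmb1 rose by 0.70, 0.55 and 0.49. Log2 fold changes within the complex ran from -0.34 to 0.70. The proteasome list thus came nearest to the ribosomal proteins, and no difference between lists was tested.

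**Figure D5:**
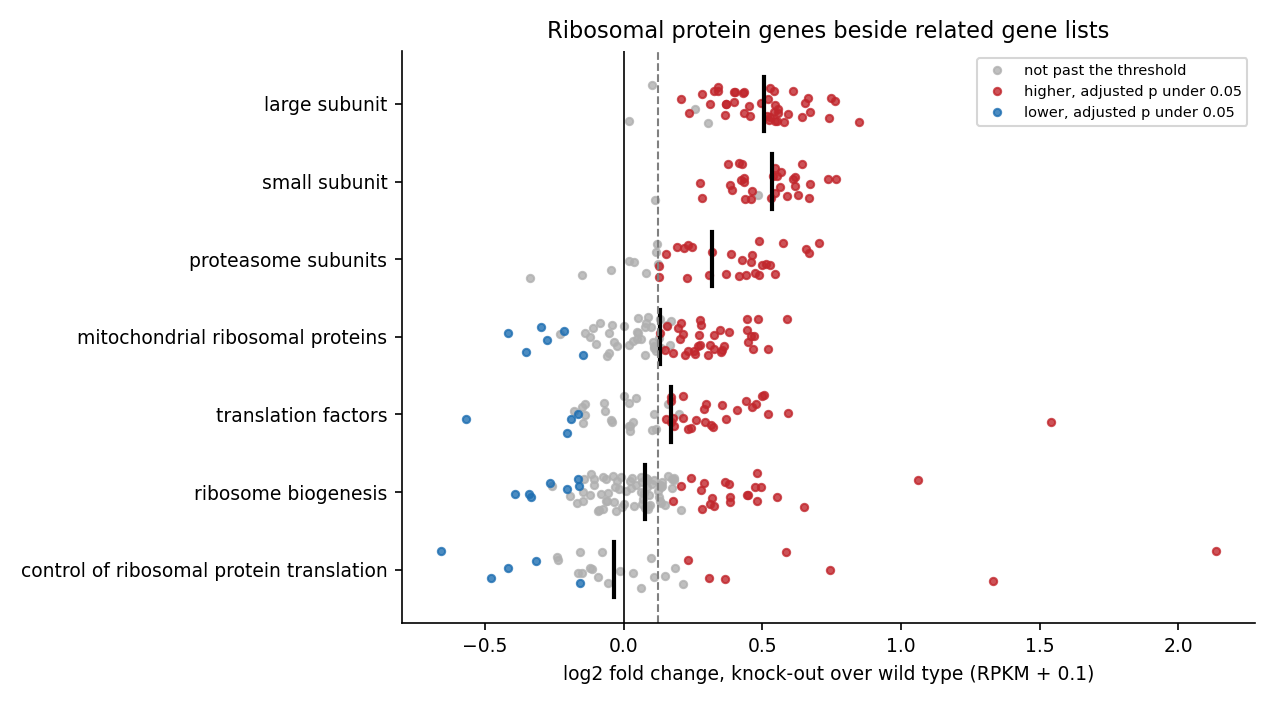
Log2 fold change (knock-out over wild type, RPKM + 0.1) of each tested gene in 7 lists, red where higher and blue where lower at an adjusted p under 0.05 and grey otherwise, with the list median as a black bar and the median of all tested genes (0.12) as a dashed line. The large and small subunit genes have medians of 0.50 and 0.53 and no blue points, and the other lists have medians of -0.04 to 0.32.

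Markers of some other cell types differed between the groups, and their counts stand against 37.0% higher and 14.8% lower over all tested genes. Of 15 tested macrophage markers 13 rose and 0 fell, and the summed level of the 18 found was 86.8 to 147 RPKM in knock-out libraries and 37.2 to 47.8 RPKM in the wild type, with none at 0 in all libraries and Emr1, Itgam, Aif1, Trem2 and Ptprc below a mean of 1 RPKM. Markers of satellite cells and myoblasts rose in 4 of 6 tested (39.1 to 46.7 against 30.2 to 35.3 RPKM summed), and Pax7 and Myf5 had means below 1 RPKM. Fibroblast markers rose in 4 of 10, a share close to that of all genes (310.0 to 416 against 204 to 302 RPKM), and slow fibre markers in 7 of 7 (187 to 446 against 55.0 to 193 RPKM, with overlap). Endothelial markers fell in 7 of 12 and red cell markers in 5 of 5 (36.2 to 63.9 against 50.3 to 83.5 RPKM, and 138 to 225 against 266 to 291 RPKM). Of the lymphocyte markers 1 was tested and rose, and both lymphocyte and neutrophil markers summed to at most 1.93 RPKM in every library. The part of these cells in the rise of the ribosomal protein genes was not tested.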

How the data were processed

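RNA was extracted with Trizol and libraries were made with the Illumina TruSeq kit from total RNA, per the labels' protocols. The authors deposited RPKM values, with a row for each RefSeq transcript. The submitters' processing notes name mm9, TopHat 1.3.2, Bowtie 0.12.7.0 and Partek 6.6 with no roles; strand, filters and the handling of reads with several matches are not stated there. The 23665 transcripts were summed to 18062 symbols. Genes with a mean of at least 0.5 RPKM (11032) entered a fit by limma 3.58.1 (R 4.3.3) of log2(RPKM + 0.1) values (eBayes with trend, two-sided, Benjamini-Hochberg, threshold 0.05), all 9 libraries; the step was tested on simulated data. Depth was estimated from steps of 1 read, with 72.0% to 75.5% of low values within 0.1 of a whole number, so no count model was used. Paralog ratios had an exact permutation test. Named were the 8 members highest and 8 lowest by fold change, the 6 most abundant, the paralog pairs, Rplp0, Rplp1, Rplp2, Rpsa, members below the filter, and 3 genes per direction of other lists; members named beside these illustrate a role. Some genes are not reported here. Members and lists were chosen with earlier results of these data known. Scaling, filters, pseudocounts and left-out libraries were varied.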

Additional observations from a re-analysis of the deposited data

Results flagged for a closer look

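Among 60 groups of library values examined (knock-out and wild type for each named member, and for the summary measures per library), 4 held a library that stood apart from the rest of its group, by a gap that takes up most of the group's range. Chance marks about 1 in 20 such groups. In the wild type, wt4 was the lowest for Rpl18 at 70.4 RPKM, and wt3 was the highest for Rps28 at 62.3 RPKM. In the knock-out, ko2 was the lowest for Rpl39 at 110.1 RPKM. The median deviation of the ribosomal protein genes in wt4 was -0.35 on the log2 scale, apart from -0.24 to -0.25 in the other wild-type columns. Without wt4, 71 members rose and the median log2 fold change was 0.47.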

How the results depend on the processing

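The count of members that rose was 72 and ran from 55 to 73 under every alternative except the removal of the trend with transcript length, where it was 46 and 2 members fell. The median of 0.52 became 0.39 with centring, 0.36 with equal RPKM totals, 0.29 with quantile normalization and 0.22 with the trend over transcript length removed. In alternatives chosen after seeing the data it was 0.28 with centring on genes of at most 2136 bases, 0.33 with centring on the most abundant genes and 0.28 with the trend over coding length removed. Leaving out 1 library gave 71 to 73 members higher, 0 lower, medians of 0.47 to 0.53, and a log2 difference for Rpl3l against Rpl3 of -0.51 to -0.38. That difference was -0.35 without wt1 and wt2 (exact permutation p = 0.143). For the other paralog pairs, whose alternatives were chosen after seeing the data, the direction held throughout, and 9 of 15 alternatives ended the call for Rpl36al against Rpl36a. The large less small subunit median was -0.0597 without a filter, 0.0059 with quantile normalization, -0.0614 with the transcript length trend removed, 0.032 without wt1 and wt2, -0.0598 without wt3 and wt4, and -0.0617 to 0.0063 with 1 library left out. Rpl3l turned to -0.0873 with quantile normalization, -0.0243 with the transcript length trend removed and -0.0315 with centring on genes of at most 2136 bases. Rpl17 turned to -0.19 and Rps27l to -0.22 with the transcript length trend removed, and Rpl15 to -0.0014 with centring on genes of at most 2136 bases. Apart from length and scaling, whose construction changes the values, the cause was not tested. No paired analysis was possible because the wild-type columns carry numbers that match no label, so they share no replicate number with the knock-out. Fewer than 100 estimated reads in at least 1 library backed 9 members, among them 5 of the 6 that did not pass but also Rpl29 and Rps15a, which did. The part of depth in these calls was not tested.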
